A study of Mus musculus with 4 samples.

Results

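The miR-126, miR-221 and miR-222 miRNAs, which are known from endothelium and platelets, were examined in the plasma of mice with acute myocardial infarction (AMI) and of Sham-operated mice. They were chosen by name as 6 of the 921 miRNA entries of the plasma sequencing: mmu-miR-126a-3p, mmu-miR-126a-5p, mmu-miR-126b-5p, mmu-miR-221-3p, mmu-miR-221-5p and mmu-miR-222-3p, where mmu marks the mouse and is left off below. Each was an entry of its own, shared with no other name. AMI plasma came from C57BL/6 mice whose left anterior descending coronary artery had been tied off for good, and Sham plasma from C57BL/6 mice that had the same open-chest procedure without the ligation. By the study's methods the mice were male and 8 weeks old. Each group had 2 libraries (AMI 1, AMI 2, Sham 1 and Sham 2). Whether these came from separate mice, and how long after surgery the blood was drawn, is not given in the sources used here, so p-values measure the spread between libraries, which may be technical.

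A miRNA hairpin is cut into a duplex of its 5p and 3p arms, of which one is usually kept and loaded into Argonaute and the other mostly lost. The loaded arm finds its target mRNAs mainly through its seed, bases 2 to 8. miR-126 lies in Egfl7, a gene of endothelial cells. Its 3p arm is known to sustain VEGF signalling and vessel integrity by holding down the inhibitors Spred1 and Pik3r2, and in mice its 5p arm is known to favour endothelial proliferation through Dlk1. miR-221 and miR-222 are known to hold down the stem cell factor receptor Kit in endothelial cells and the cell cycle inhibitor Cdkn1b in dividing smooth muscle cells. Platelets also carry both families, so their plasma level has no single cell of origin.

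Mature sequences from RefSeq (GRCm38.p6) were found for 5 of the 6 and are shown, 5′ to 3′ with the seed in capitals, because the comparisons below turn on which of them share a seed or a locus.
miR-126a-3p: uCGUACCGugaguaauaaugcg
miR-126b-5p: aUUAUUACucacgguacgaguu
miR-221-3p: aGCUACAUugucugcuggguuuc
miR-221-5p: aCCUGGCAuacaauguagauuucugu
miR-222-3p: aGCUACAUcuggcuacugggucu
miR-221-3p and miR-222-3p begin with the same 8 bases and so share a seed, but were identical at only 11 of 23 positions when aligned without gaps from the 5′ end. miR-126a-3p and miR-126b-5p come from opposite strands of one place in the genome. miR-126a-3p lies on chromosome 2 (26591402 to 26591423, plus strand) and miR-126b-5p at 26591399 to 26591420 on the minus strand, so that 19 bases of the one are complementary to the other. The whole Mir126b hairpin (26591363 to 26591420) lies antisense within the Mir126a hairpin (26591357 to 26591429). In the GENCODE annotation of GRCm38 both lie in an intron of 8 of the 9 Egfl7 transcripts that span them, and overlap an exon of the other. The hairpins Mir221 (19146294 to 19146388) and Mir222 (19146893 to 19146971) lie on the minus strand of chromosome X, 504 bases apart, and overlap no other annotated gene.

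The AMI libraries held 9016139 and 11461361 unique molecular identifiers (UMIs, tags that count each captured molecule once) and the Sham libraries 7460687 and 4842247. The 6 vascular miRNAs were sequenced at 1.02 to 1.28 reads per UMI. Levels are given as CPM, the UMIs of a miRNA scaled to a common library size by TMM. As a sign of haemolysis, miR-451a of red cells was set against miR-23a-3p. This log2 ratio was 1.02 and 0.52 in the AMI libraries, against 3.02 and 1.56 in the Sham libraries, and its part in the results below was not tested. The other red-cell miRNAs given below did not all move with miR-451a. All 4 myo-miRs of the study were higher in AMI plasma (edgeR, adjusted p from 3.28e-06 to 0.00113), in the direction of the labels. Of the 772 miRNAs tested, 27.5% passed the test (edgeR, adjusted p under 0.05), and 12.7% passed it with a lower level in AMI plasma.

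The vascular miRNAs spanned 3 orders of magnitude in plasma. Of all miRNA UMIs they made up 1.30% and 1.35% in AMI 1 and 2, against 2.14% and 2.31% in Sham 1 and 2. In all 4 libraries miR-126a-3p was the most abundant, followed by miR-126a-5p and miR-221-3p, then miR-222-3p, miR-126b-5p and miR-221-5p. miR-126a-5p and miR-221-3p changed places between libraries, with miR-221-3p above miR-126a-5p in AMI 1 and Sham 2 and below it in AMI 2 and Sham 1, so these neighbours could not be put in order. Counted by rank among all miRNA entries, miR-126a-3p stood at 31 and 32 in the AMI libraries, against 21 and 22 in the Sham libraries, whereas miR-221-5p stood at 458 and 427 in the AMI and at 373 and 348 in the Sham libraries. The precision differed accordingly, since miR-221-5p rested on 49 to 75 UMIs per library and miR-126a-3p on 52276 to 80252.

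**Figure D1:**
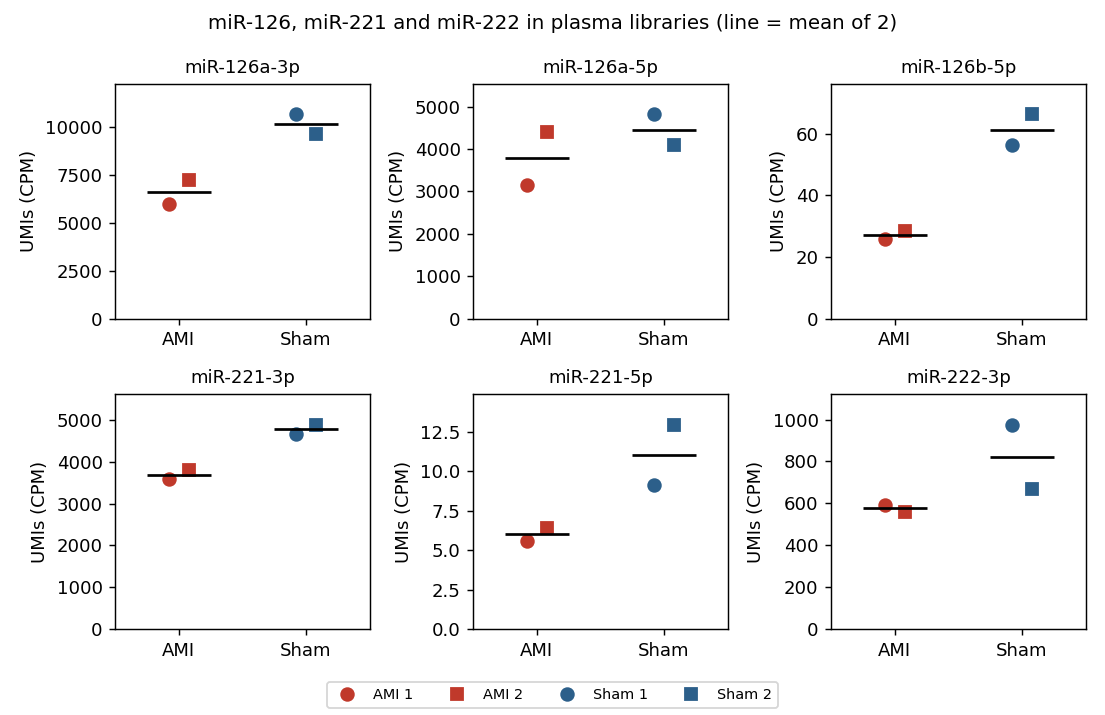
Level of each of the 6 miRNAs (vertical axis, CPM after TMM scaling, from 0) in AMI 1 and AMI 2 (red) and Sham 1 and Sham 2 (blue), with the mean of the 2 libraries as a line. Both AMI libraries lie below both Sham libraries for every miRNA but miR-126a-5p, whose groups overlap.

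All 6 were at lower mean levels in AMI than in Sham plasma, but only miR-126b-5p passed the test across all miRNAs. For 5 of the 6 both AMI libraries lay below both Sham libraries, which was so for 30.4% of all miRNAs tested. The fitted log2 fold change of AMI over Sham was under 0 for 6 of the 6, against 47.9% of all miRNAs, and its median was −0.57, beside 0.041 for all. Without AMI 1 it was under 0 for 5 of the 6. The 6 share hairpins and loci and so are not independent, and miR-222-5p, an arm not among them, was at 0.79. In the test, 1 of the 6 was called lower (background 12.7%) and none higher. 2 of the 6 had an unadjusted p under 0.05 (39.2% of all miRNAs) and 1 was called by DESeq2 (32.5% of all), so neither share was above that of all miRNAs. Under library size alone the median of the 6 was −0.83 and that of all miRNAs −0.23, and under scaling by the study's 6 reference miRNAs they were −0.39 and 0.21, with all 6 under 0 in both cases. All these levels are relative to the rest of a library and do not give the amount per volume of plasma. In plasma, fewer contributing cells and less RNA from each cannot be told apart.

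miR-126a-3p, the main product of the miR-126 locus, had 52276 and 69604 UMIs in AMI 1 and 2, against 80252 and 55601 UMIs in Sham 1 and 2. Scaled, this was 5973 and 7221 CPM in the AMI libraries, against 10651 and 9615 CPM in the Sham libraries. The groups did not overlap. The means were 6597 ± 882 CPM in AMI and 10133 ± 733 CPM in Sham plasma (SD, n = 2 libraries each). The level in AMI was thus 0.651 times that in Sham plasma, or −0.62 on the log2 scale with a 95% confidence interval of −1.41 to 0.17, and did not pass the test (adjusted p = 0.229, edgeR). The interval takes in both a fall to 0.376 times and a rise to 1.13 times the Sham level.

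miR-126a-5p, the partner arm from the same hairpin, had 3159 and 4414 CPM in AMI 1 and 2, against 4821 and 4088 CPM in Sham 1 and 2. AMI 2 was above Sham 2, so the groups overlapped. Its means were 3786 ± 887 CPM in AMI and 4454 ± 519 CPM in Sham plasma (SD, n = 2 libraries each), and its log2 fold change was −0.23 (−1.04 to 0.57, adjusted p = 0.696, edgeR). This sign rested on AMI 1, without which the value was 0.011.

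The seed of miR-126b-5p, the antisense product, is held by no other mouse miRNA in the RefSeq table, which lacks miR-126a-5p. The same is so for the seeds of miR-126a-3p and miR-221-5p. miR-126b-5p fell in AMI plasma to 0.444 times its level in Sham plasma. It had 227 and 275 UMIs in AMI 1 and 2, against 425 and 384 UMIs in Sham 1 and 2, although AMI 1 and AMI 2 were the deeper libraries. The levels were 25.9 and 28.5 CPM in the AMI libraries, against 56.4 and 66.4 CPM in the Sham libraries, without overlap. The means were 27.2 ± 1.83 CPM in AMI and 61.4 ± 7.07 CPM in Sham plasma (SD, n = 2 libraries each). The log2 fold change was −1.17 (standard error 0.36, interval −1.95 to −0.40, adjusted p = 0.0294, edgeR). The change kept its size but not its call without AMI 1 (−1.08, adjusted p = 0.343, edgeR) and without AMI 2 (−1.24, 0.251), which leave 1 AMI library assumed to vary as the Sham libraries did. The call was also lost when libraries were scaled by the 6 reference miRNAs (−1.01, 0.0615), and the adjusted p ranged from 0.000538 to 0.343 over the 15 alternatives. The other arm of the same hairpin, miR-126b-3p, had 110 and 154 CPM in the AMI libraries, against 168 and 154 CPM in the Sham libraries. Its log2 fold change was −0.28 (−1.10 to 0.53, adjusted p = 0.621, edgeR), and the AMI 2 and Sham 2 values were almost equal.

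miR-221-3p, the main arm of its hairpin, had 3579 and 3795 CPM in AMI 1 and 2, against 4659 and 4890.4 CPM in Sham 1 and 2. The groups did not overlap, with means of 3687 ± 153 CPM in AMI and 4775 ± 164 CPM in Sham plasma (SD, n = 2 libraries each). The spread within each group was small beside the difference, but edgeR draws much of the spread from other miRNAs, and the log2 fold change of −0.37 (−1.14 to 0.39) did not pass (adjusted p = 0.468, edgeR). miR-222-3p, its cluster partner with the same seed, had 592 and 561 CPM in AMI 1 and 2, against 976 and 667 CPM in Sham 1 and 2. The Sham libraries differed from each other by more than Sham 2 differed from the AMI libraries. The log2 fold change was −0.51 (−1.30 to 0.28, adjusted p = 0.325, edgeR). It depended on the Sham library used, at −0.79 without Sham 2 and at −0.21 without Sham 1. Each of these fits leaves 1 Sham library, assumed to vary as the AMI libraries did. Under the alternatives that kept all 4 libraries miR-222-3p did not pass. Its adjusted p there ranged from 0.140 (edgeR, library size alone) to 0.515 (edgeR, scaled by the 6 reference miRNAs).

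The minor arms of the cluster were rare, and their fitted values lay on opposite sides of 0, though neither passed the test. miR-221-5p had 49 and 62 UMIs in AMI 1 and 2, against 69 and 75 UMIs in Sham 1 and 2, which was 5.60 and 6.43 CPM in the AMI libraries, against 9.16 and 13.0 CPM in the Sham libraries. The groups did not overlap, and the log2 fold change of −0.87 (−1.70 to −0.040) had an interval under 0 but an adjusted p of 0.111 (edgeR). The value was −1.11 without Sham 1 and −0.63 without Sham 2, fits that leave 1 Sham library. Under the alternatives that kept all 4 libraries miR-221-5p did not pass. Its adjusted p there ranged from 0.0545 (edgeR, library size alone) to 0.199 (edgeR, scaled by the 6 reference miRNAs). miR-222-5p, the remaining arm of the cluster, had 63 and 71 UMIs in AMI 1 and 2, against 32 and 24 UMIs in Sham 1 and 2. It was thus the one product of these hairpins that stood above both Sham libraries in both AMI libraries, as did 35.0% of all miRNAs tested. Its log2 fold change was 0.79 (−0.017 to 1.60, adjusted p = 0.135, edgeR), and it passed under none of the 15 alternatives.

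**Figure D2:**
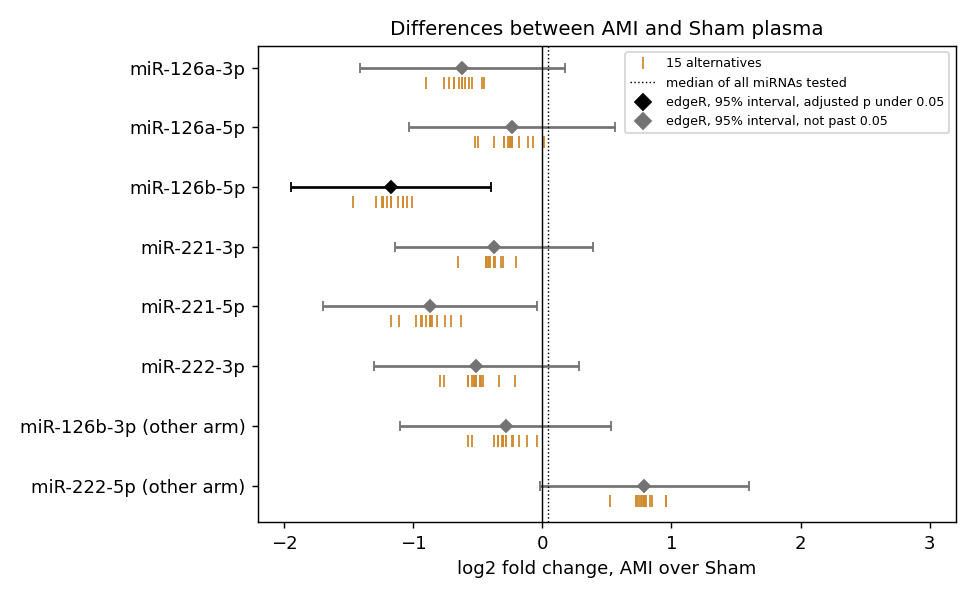
Log2 fold change of AMI over Sham (horizontal axis) for the 6 miRNAs and the 2 other arms of their hairpins, as a diamond with its 95% confidence interval from edgeR, with the values under the 15 alternatives as ticks below. Only the interval of miR-126b-5p belongs to an adjusted p under 0.05, and miR-222-5p is the only product to the right of 0, at 0.79.

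Ratios within a library need no scaling between libraries, and so bear directly on whether arms and partners moved together. For 5 ratios an exact permutation test (two-sided) was made over the 4 libraries. With 2 against 2 libraries its smallest possible p is 0.333, so no ratio could pass, and the values describe these libraries. The ratio of miR-126a-3p to miR-126a-5p was 1.89 and 1.64 in AMI 1 and 2, against 2.21 and 2.35 in Sham 1 and 2. The 3p arm thus took a smaller part of the Mir126a hairpin in both AMI libraries, at a log2 difference of AMI minus Sham of −0.37 (exact p = 0.333, adjusted over the 5 ratios 0.417). In shares of the UMIs of both arms, miR-126a-3p made up 65.4% and 62.1% in the AMI libraries, against 68.8% and 70.2% in the Sham libraries. The exact binomial intervals (Clopper-Pearson, 95%) of these shares were 65.1 to 65.7 and 61.8 to 62.3 in the AMI libraries and 68.6 to 69.1 and 69.8 to 70.5 in the Sham libraries. They cover counting error only and did not overlap between any of the libraries, so the replicates themselves differed by more than counting error.

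In the antisense hairpin the 3p arm was likewise the major one. miR-126b-5p made up 19.0% (exact 95% interval 16.9 to 21.4) and 15.7% (14.0 to 17.5) of the UMIs of Mir126b in AMI 1 and 2, against 25.2% (23.1 to 27.3) and 30.2% (27.7 to 32.8) in Sham 1 and 2. The rest was miR-126b-3p, so the 5p arm held a smaller share in both AMI libraries than in either Sham library. Set against miR-126a-5p, miR-126b-5p was the rarer by a factor of 122 and 154 in the AMI libraries, against 85.4 and 61.5 in the Sham libraries, a log2 difference of 0.92 (AMI minus Sham, exact p = 0.333, adjusted 0.417). Set against miR-126a-3p, to which it is antisense, its log2 ratio was −7.84 and −7.98 in the AMI libraries, against −7.56 and −7.18 in the Sham libraries, a difference of −0.54 that was given no test.

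miR-221-3p outnumbered miR-221-5p by 633 and 585 to 1 in AMI 1 and AMI 2 and by 505 and 375 to 1 in Sham 1 and Sham 2, a log2 difference of 0.48 (exact p = 0.333, adjusted 0.417). Without Sham 2 it was 0.27 and without Sham 1 0.70. For Mir222 the ratio was lower in the AMI libraries. miR-222-3p outnumbered miR-222-5p by 81.6 and 75.6 to 1 in the AMI libraries, against 226 and 157 to 1 in the Sham libraries, a log2 difference of −1.26 that was given no test. The minor arm of Mir222 therefore held 1.20% and 1.30% of its UMIs in the AMI libraries, against 0.433% and 0.618% in the Sham libraries. These shares rested on few UMIs of miR-222-5p, 63 and 71 in AMI 1 and 2, against 32 and 24 in Sham 1 and 2. This ratio was not one of the 5 chosen for testing. The ratio of the cluster partners to each other overlapped between the groups. miR-222-3p stood at 0.165 and 0.148 of miR-221-3p in AMI 1 and AMI 2 and at 0.209 and 0.136 in Sham 1 and Sham 2, where the AMI libraries fell between the Sham libraries (log2 difference −0.11, exact p = 1). Without Sham 1 this difference was 0.20. Across the loci, miR-126a-3p stood at 1.67 and 1.90 times miR-221-3p in the AMI libraries, against 2.29 and 1.97 times in the Sham libraries (log2 difference −0.25, exact p = 0.333, adjusted 0.417). This was −0.14 without Sham 1 and −0.16 without AMI 1.

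**Figure D3:**
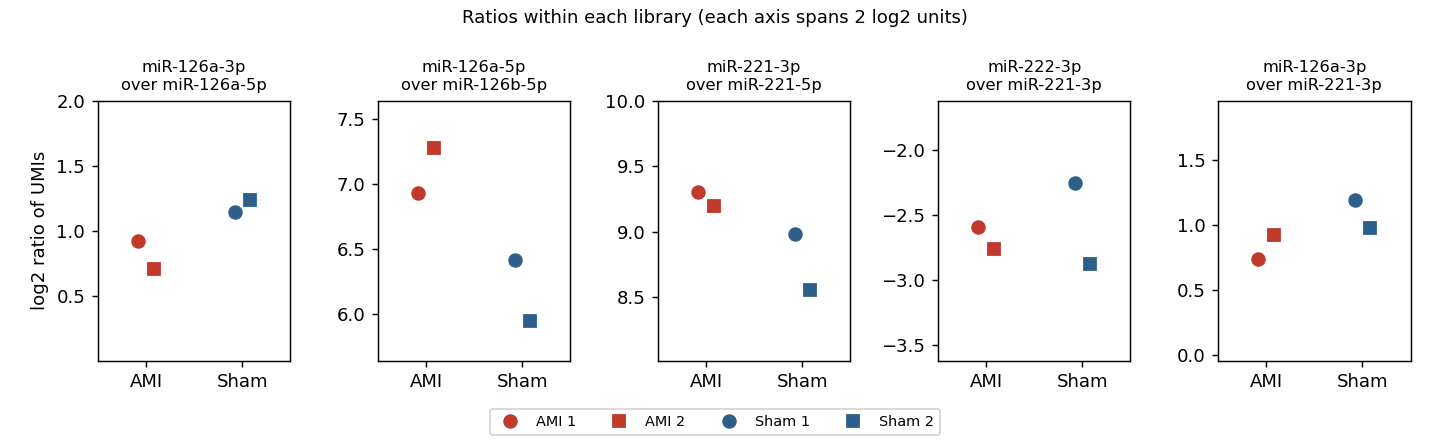
Log2 ratio of UMIs within each library (vertical axis, each panel spanning the same range) for the 5 ratios tested, in the AMI libraries (red) and the Sham libraries (blue). The groups are apart in every panel but that of miR-222-3p over miR-221-3p, and with 2 libraries a group none can reach a p under 0.333.

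Set among all miRNAs tested, of which 98 were called lower in AMI plasma, the log2 fold changes of the vascular miRNAs lay between −1.17 and −0.23. Of 11 other miRNAs studied in endothelial cells, on a list that left out miR-126, miR-221 and miR-222, 1 rose, 2 fell and 8 did not pass (edgeR), with a median log2 fold change of 0.22 beside 0.041 for all. The 3 calls were about the share seen over all miRNAs tested, 27.5%. Of the 11, 4 had an unadjusted p under 0.05 (39.2% of all) and 4 were called by DESeq2 (32.5% of all). miR-130a-3p rose (1.87, adjusted p = 0.00477, edgeR), while miR-181b-5p (−3.40, 0.000205) and miR-100-5p (−1.50, 0.0134) fell. The most abundant, miR-23a-3p, was at 11777 and 13021 CPM in the AMI libraries, against 8521 and 11127 CPM in the Sham libraries. The summed level of the list was 46302 and 48493 CPM in AMI plasma and 38602 and 41833 CPM in Sham plasma, thus higher in both AMI libraries. Within this sum miR-24-3p was at 9968 and 10017 CPM in the AMI libraries, against 4976 and 4885 CPM in the Sham libraries. It did not pass in edgeR (adjusted p = 0.0528) but was called by DESeq2 (adjusted p = 0.00105). Of the 11, 3 had a log2 fold change under 0. miR-24-3p and miR-92a-3p were also on the platelet list below, so the lists are not separate. The summed level of the 6 vascular miRNAs, 13335 and 16025 CPM in AMI and 21172 and 19339 CPM in Sham plasma, was lower in both AMI libraries.

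**Figure D4:**
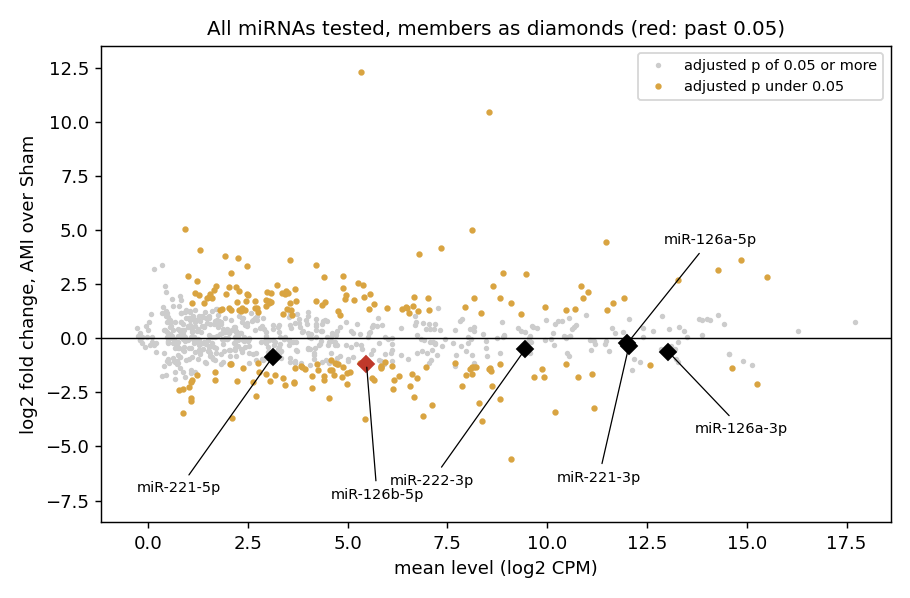
Log2 fold change of AMI over Sham (vertical axis) against mean level (horizontal axis, log2 CPM) for the 772 miRNAs tested, with those at an adjusted p under 0.05 in orange and the 6 vascular miRNAs as diamonds. The diamonds lie between −1.17 and −0.23, below 0 but among many other miRNAs, and only miR-126b-5p (red) is past the threshold.

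Of 9 on a platelet list without the 6 vascular miRNAs, 0 passed in edgeR (27.5% of all miRNAs), 4 had an unadjusted p under 0.05 (39.2% of all) and 4 were called by DESeq2 (32.5% of all), with a median of −0.17. The myeloid and platelet miR-223-3p was at 25601 and 28001 CPM in the AMI libraries, against 10091 and 15370.1 CPM in the Sham libraries. miR-21a-5p, the most abundant of the list, was at 16126 and 23732 CPM in the AMI libraries, against 34740.3 and 48985 CPM in the Sham libraries, on the other side. The summed platelet list was at 119177 and 138386 CPM in AMI plasma and at 140966 and 131814 CPM in Sham plasma, with overlap. Of 4 smooth muscle miRNAs, 2 rose (14.8% of all miRNAs), both of them arms of miR-145a. On the log2 scale miR-145a-5p was up by 1.63 (adjusted p = 0.0106, edgeR) and miR-145a-3p by 1.30 (0.0389). The arms of their cluster partner miR-143 did not pass and lay on opposite sides of 0. miR-143-5p stood at 1.39 (adjusted p = 0.0598, edgeR), with both AMI libraries above both Sham libraries. miR-143-3p, which had the highest level of the 4, stood at −0.34 (0.653), with overlap between the groups. Of 6 red-cell miRNAs, 0 passed in edgeR, 1 had an unadjusted p under 0.05 and 1 was called by DESeq2, with a median of 0.21. Both times this was miR-451a (log2 fold change −1.26). It was the only 1 of the 6 with both AMI libraries below both Sham libraries (30.4% of all miRNAs). Of the 6, 2 had a log2 fold change under 0, and miR-16-5p was at 0.74. The sum of the 6, most of it miR-16-5p, was 373773 and 420011 CPM in AMI plasma and 386938 and 211572 CPM in Sham plasma. All 7 hepatocyte miRNAs rose (14.8% of all miRNAs, median 2.47), and miR-122-5p, the most abundant, was at 67860 and 95972 CPM in the AMI libraries, against 5847 and 17425 CPM in the Sham libraries. Of the 6 reference miRNAs, which the study chose on these libraries, 0 passed in edgeR, 0 had an unadjusted p under 0.05 and 0 were called by DESeq2, and their median was −0.19.

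Of 277 other miRNAs with at least 100 UMIs in every library, those whose pattern over the 4 libraries was most like that of miR-126a-3p were miR-298-5p, miR-26a-5p and miR-195a-5p. Their root mean square differences from it, on log2 CPM centred per miRNA, were 0.0553, 0.0626 and 0.0877. miR-26a-5p also had a similar level, at 5675 and 6826 CPM in the AMI libraries, against 11055 and 9890.2 CPM in the Sham libraries. The partner arm miR-126a-5p stood at 0.204 from miR-126a-3p. For miR-221-3p the nearest were miR-16-1-3p (0.0436), miR-195a-3p (0.0457) and miR-200b-3p (0.0495), one of the reference miRNAs, while its cluster partner miR-222-3p stood at 0.233 and miR-126a-3p at 0.162. In each case the 3 named were picked as the smallest of 277 distances, and the place of the partner among the 277 was not counted. Over 4 libraries these distances are a description only, and do not show whether arms or partners were unusually unlike.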

How the data were processed

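Small RNA from plasma was sequenced in 4 libraries. The authors deposited whole-number counts of UMIs and of reads, not normalized, for 921 miRNA and 94 piRNA entries. bcl2fastq 2.18.0.12 and mm10 are named in the submitters' processing notes, and no source used here gives the aligner or counter. A row without values was dropped. Between AMI 1 and Sham 2, and likewise between AMI 2 and Sham 1, 0 entries had a larger count of 1 to 9, as under a minimum per pair, which no source states. None of the 6 miRNAs was at 0 in such a pair.

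UMI counts of miRNAs were tested with edgeR 4.0.16 in R 4.3.3 (filterByExpr, TMM, robust quasi-likelihood fit, two-sided, Benjamini-Hochberg over 772 miRNAs, threshold 0.05). Ratios had 0.5 added to each count and were tested by exact permutation. The edgeR fit was also run on counts simulated from the mean levels and the spread it estimated here. Such a run cannot test whether that spread holds for these libraries. Alternatives were DESeq2 1.42.0, other scalings and filters, read counts, piRNA entries included, a replicate block and each library left out. A crossed block and a fit that dropped entries missing from such a pair were added after seeing the data. Named were the 6 miRNAs, the other arms of their hairpins, the 3 miRNAs most like miR-126a-3p and miR-221-3p and, per marker list, the most abundant miRNA and those a comparison turned on. Members and lists were chosen with earlier results of these data known. Intervals cover counting error only where shares are given.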

Additional observations from a re-analysis of the deposited data

How the results depend on the processing

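The number of miRNAs called, 212, was 166 to 256 under the alternatives that kept all 4 libraries and 79 to 305 when 1 library was left out (79 without AMI 1, 95 without AMI 2). Scaling by library size alone gave 86 higher and 147 lower calls, against 114 and 98, and moved the median of all miRNAs by −0.27, while scaling by the 6 reference miRNAs moved it by 0.17. Of the 6 vascular miRNAs, 1 was called (27.5% of all miRNAs tested), which became 0 when scaled by the 6 reference miRNAs (203 of all 772). Leaving out 1 library leaves 1 library in a group, so calls among the 6 are not counted there. The median log2 fold change of the 6 was then −0.50 without AMI 1, −0.63 without AMI 2, −0.48 without Sham 1 and −0.68 without Sham 2. The labels share only a replicate number between groups, and same-numbered libraries deviated from their group means with a correlation of −0.37 across 772 miRNAs, or 0.010 across the 750 left when entries missing from both AMI 1 and Sham 2, or from both AMI 2 and Sham 1, were dropped. With the replicate number as a block 172 miRNAs were called, and of the vascular miRNAs 0, miR-126b-5p being at −1.17 (adjusted p = 0.0570, edgeR). With the crossed pairing 249 were called. For the log2 ratio of miR-222-3p to miR-221-3p the difference was −0.42 to 0.20 with 1 library left out, turning to 0.20 without Sham 1, and the log2 fold change of miR-126a-5p was −0.50 to 0.011, turning to 0.011 without AMI 1. The other 4 ratios kept their direction under all 6 alternatives, but with 1 library left out the difference was 0.27 to 0.70 for miR-221-3p to miR-221-5p and −0.36 to −0.14 for miR-126a-3p to miR-221-3p. With 2 libraries a group, the 95% intervals of the 6 reached 0.77 to 0.83 log2 units to either side.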
